A study of Mus musculus with 6 samples.

Results

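Snai1, Snai2, Zeb1 and Zeb2 encode zinc-finger repressors of epithelial identity and were examined for histone H3 monomethylated at lysine 4 (H3K4me1) in the embryonic whisker pad. They were chosen by name, 4 of the 21755 protein-coding genes annotated on chromosomes 1 to 19 and X, and their peaks were then collected by position. A window peak overlapped the gene body or the 5 kb on either side. A distal peak lay outside that window, up to 300 kb away, and had the gene's own protein-coding start site as its nearest. Of the peaks listed, 17 of 16788 in replicate 1, 12 of 12969 in replicate 2 and 13 of 13998 in replicate 3 were assigned to the 4 genes.

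The data came from whisker pads of wild-type mice of the labelled strain B6/J2 at embryonic day 12, dissociated to single cells and profiled by CUT&Tag, in which an antibody tethers a transposase that cuts and tags the DNA around a chromatin mark. In all, 6 samples were made, 3 with an H3K4me1 antibody and 3 with control IgG, and the IgG samples are not analysed here. There was no treatment or mutant group, so the comparisons were between genes and between replicates. A pad mixes mesenchyme, ectoderm, vessels, nerve and muscle, and fewer cells carrying the mark cannot be told apart from less mark per cell. The labels contradict each other for 4 samples, including H3K4me1 replicates 2 and 3, whose source name is adult kidney although their titles give a whisker pad, and the titles were followed. All 12 facial mesenchyme markers had a window peak in every replicate, as did 15.5% of all genes. The marker lists were chosen with earlier results of these data known, so such a count is a description only. Of 14 adult kidney markers, 4, 4 and 1 had one in replicates 1, 2 and 3, beside 24.9, 22.6 and 19.6% of all genes. Slc12a1 alone had one in all 3. The others with a peak, each in replicates 1 and 2 but not 3, were Aqp2 (13.9 and 21.2% of its window covered), Pax2 (4.73 and 9.44%) and Pax8 (3.17 and 2.79%). The remaining 10, among them Umod, Nphs1 and Slc34a1, had 0 peaks in every replicate, as did 71.2% of all genes. These kidney genes were named after their values were seen. Whether kidney material was in replicates 2 and 3 was not tested beyond these counts.

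Snai1 and Snai2 are zinc-finger repressors that bind E-boxes and repress cadherin and tight junction genes. Zeb1 and Zeb2 carry zinc-finger clusters at both ends with a homeodomain between them, bind the same kind of E-box, and are held in check by the miR-200 family. All 4 are known as drivers of epithelial to mesenchymal transition, the change of state by which neural crest cells leave the neural tube and later supply much of the facial mesenchyme. Zeb2 also binds SMAD proteins, and its loss in people causes a syndrome with facial and nervous system features. H3K4me1 marks the flanks of enhancers and promoters, active or poised, and is usually low directly over an active start site, where trimethylation prevails.

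The DNA at the places where the results turn is shown first, read from GRCm38 (the mm10 build), with the upstream stretch credited to RefSeq. Each is the plus strand, 5′ to 3′. In all, 4 motifs were looked for on both strands: CAGGTG, the E-box bound by Snai and Zeb proteins; CATCTG, an E-box bound by Twist proteins; TAATTA, a homeodomain core; and CTTTGAT, a LEF and TCF motif. Capitals mark a match. The upstream stretch is shown because it had no peak, and the others because they surround the highest pileup of a peak. The Zeb2 intron stretch is taken around that of replicate 3.
Snai1, the 250 bases upstream of the start, chr2:167537945-167538194: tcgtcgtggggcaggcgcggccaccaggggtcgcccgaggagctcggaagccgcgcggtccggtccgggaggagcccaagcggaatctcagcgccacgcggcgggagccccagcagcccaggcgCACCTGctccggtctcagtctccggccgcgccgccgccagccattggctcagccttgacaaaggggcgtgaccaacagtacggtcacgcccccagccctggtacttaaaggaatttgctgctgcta
Snai1, at the highest pileup past the gene end, chr2:167542815-167543099: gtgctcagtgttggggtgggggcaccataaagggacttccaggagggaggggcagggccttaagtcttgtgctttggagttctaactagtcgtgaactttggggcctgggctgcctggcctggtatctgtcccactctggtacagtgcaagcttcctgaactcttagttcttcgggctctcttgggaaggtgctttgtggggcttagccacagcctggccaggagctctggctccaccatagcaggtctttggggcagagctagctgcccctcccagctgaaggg
Snai1, at the highest pileup of the strongest distal region, chr2:167559795-167560094: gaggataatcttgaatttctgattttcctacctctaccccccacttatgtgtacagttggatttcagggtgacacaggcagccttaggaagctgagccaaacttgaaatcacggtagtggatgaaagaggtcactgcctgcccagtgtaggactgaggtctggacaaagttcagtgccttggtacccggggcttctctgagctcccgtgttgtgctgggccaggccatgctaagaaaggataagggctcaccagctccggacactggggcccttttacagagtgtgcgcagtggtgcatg
Zeb2, in the intron region with the highest total signal, chr2:45102949-45103248: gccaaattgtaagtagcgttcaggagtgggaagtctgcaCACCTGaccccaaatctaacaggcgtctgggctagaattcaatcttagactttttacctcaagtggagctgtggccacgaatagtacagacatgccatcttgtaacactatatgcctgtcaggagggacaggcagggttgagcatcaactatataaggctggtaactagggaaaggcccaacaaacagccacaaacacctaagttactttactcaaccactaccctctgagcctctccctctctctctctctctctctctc
Zeb2, in the distal region found in all 3 replicates, chr2:45360413-45360712: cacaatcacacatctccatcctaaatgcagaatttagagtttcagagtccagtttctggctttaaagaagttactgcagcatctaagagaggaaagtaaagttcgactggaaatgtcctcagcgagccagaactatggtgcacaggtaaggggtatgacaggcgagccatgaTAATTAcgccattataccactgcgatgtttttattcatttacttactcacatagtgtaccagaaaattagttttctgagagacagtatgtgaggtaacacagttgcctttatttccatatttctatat
The Snai1 upstream stretch is 70.0% GC with 27 CpG dinucleotides, and it holds 1 copy of CACCTG, the E-box of the Snai and Zeb proteins themselves read from the other strand. The stretch past the Snai1 gene end is 58.6% GC with 2 CpG and no match, and the distal one is 53.0% GC with 5 CpG and no match. The Zeb2 intron stretch holds 1 CACCTG, and the Zeb2 distal stretch, 39.3% GC, holds 1 TAATTA. For the Zeb2 intron region, the 300 bases at the highest pileup of replicate 1 and of replicate 2 held 0 copies of CACCTG or its reverse.

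The 4 genes fell into very different states. Zeb2 had the most peaks, 12, 7 and 10 in replicates 1, 2 and 3 (9.67 ± 2.52, SD, n = 3). Snai1 had 3, 4 and 2 (3.0 ± 1.0), among them the strongest peaks assigned to any of the 4 genes. Snai2 had 2, 0 and 1 (1.0 ± 1.0). Zeb1 had 0, 1 and 0 (0.333 ± 0.577), and its only peak was distal. Zeb2 therefore stood above every other member in every replicate. Snai1 stood above Snai2 in every replicate too, although their ranges over the replicates met at 2. Snai2 stood above Zeb1 in replicates 1 and 3 and below it in replicate 2. Zeb2 is also long, so counts were followed by coverage per length.

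**Figure D1:**
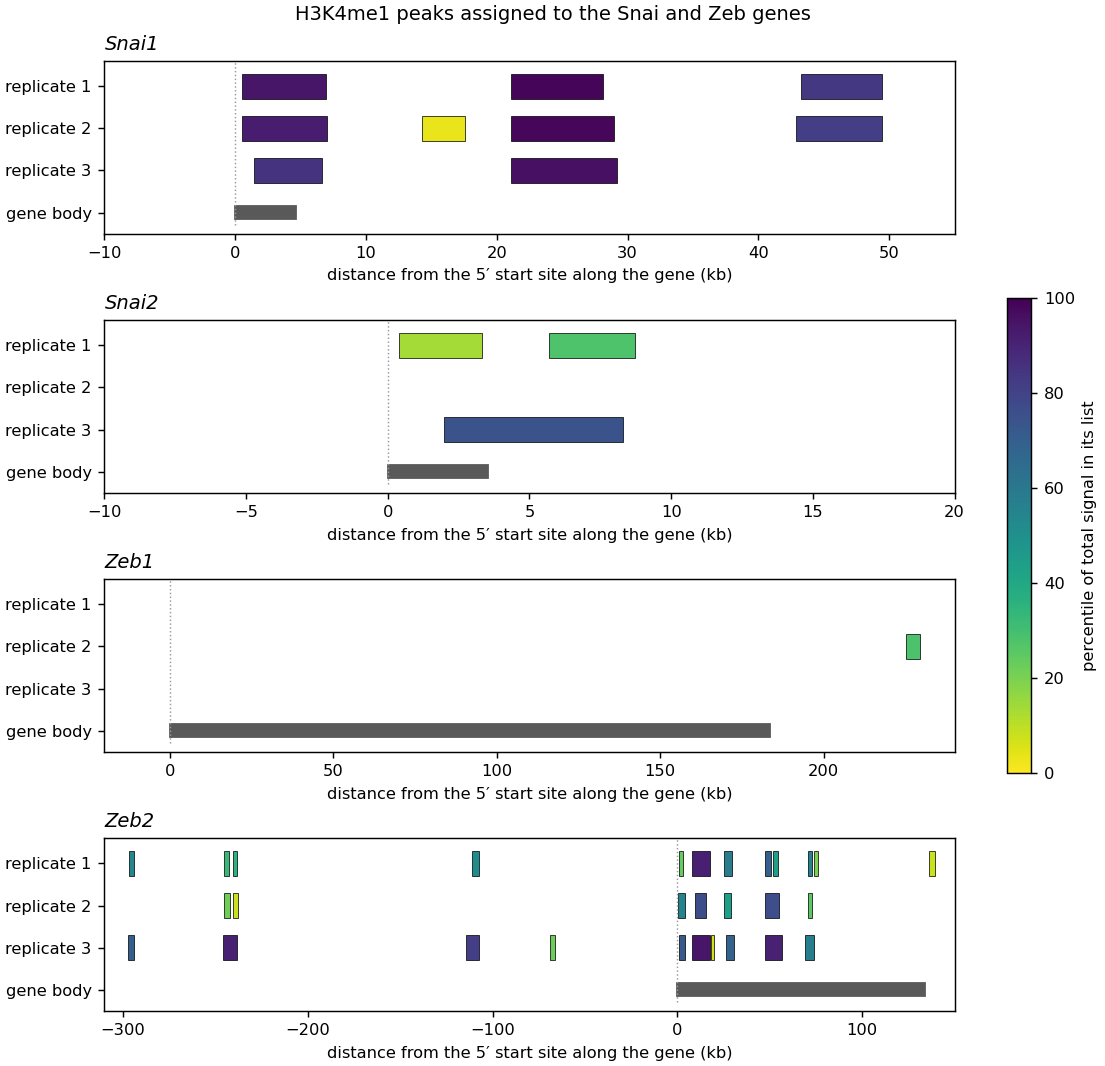
Peaks assigned to each gene in each replicate (rows), by distance from the 5′ start site in kb along the direction of transcription, coloured by the percentile of total signal within that replicate's list. Grey bars are gene bodies, and each panel has its own scale; Zeb1 has a single peak, in replicate 2, and Zeb2 has peaks in its 5′ part and out to 297 kb upstream.

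Coverage per length gave another order. Peaks covered 43.6, 44.7 and 35.7% of the Snai1 window in replicates 1, 2 and 3 (41.3 ± 4.88%, SD, n = 3). They covered 42.7, 0 and 46.7% of the Snai2 window (29.8 ± 25.9%). Zeb2 had 20.3, 16.2 and 22.7% (19.7 ± 3.28%), and Zeb1 had 0% in each. Snai1 stood above Zeb2 in every replicate, whereas Snai2 lay just below Snai1 in replicate 1, at 0 in replicate 2 and above Snai1 in replicate 3. The median over all protein-coding genes was 0%, since 24.9, 22.6 and 19.6% of genes had a window peak in replicates 1, 2 and 3. Among the 15.5% of genes with a window peak in all 3 replicates, which took in Snai1 and Zeb2, the median was 13.2%. Snai1 lay at the percentile 98.2, 98.1 and 98.5 of all genes for coverage, and Zeb2 at 93.0, 90.5 and 96.4. These percentiles are over windows of all lengths, and the window of Snai1 is 14.6 kb long, that of Zeb2 144 kb. In covered length the order was the other way, 6.37, 6.53 and 5.22 kb for Snai1 and 29.2, 23.3 and 32.6 kb for Zeb2.

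**Figure D2:**
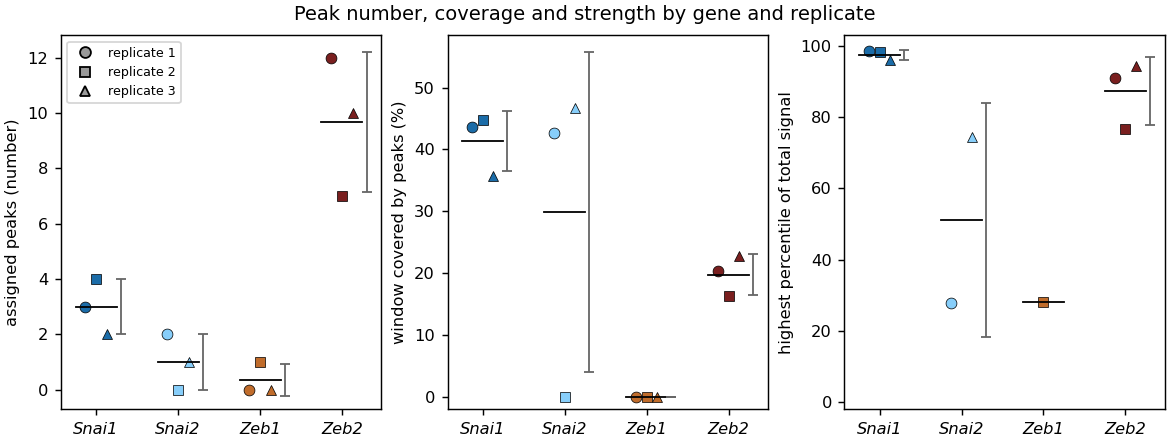
Number of assigned peaks, percent of the window (gene body with 5 kb on each side) covered by peaks, and highest percentile of total signal, by gene; points are replicates, the line is their mean and the bar beside it the SD. Zeb2 has the most peaks, 7 to 12, and Snai1 the highest percentiles, 96.0 to 98.6, while Snai2 is missing from replicate 2 and Zeb1 has a percentile in replicate 2 alone.

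Strength was taken as the percentile of a peak's total signal, the sum of the fragment pileup over its bases, within its own list, because the deposited signals are not scaled to depth. The strongest peak of Snai1 reached the percentile 98.6, 98.3 and 96.0 in replicates 1, 2 and 3 (97.6 ± 1.42, SD, n = 3). That of Zeb2 reached 91.2, 76.6 and 94.5 (87.4 ± 9.55). That of Snai2 reached 27.9 in replicate 1 and 74.5 in replicate 3, and that of Zeb1 28.2 in replicate 2. The strongest Snai1 peak ranked above the strongest Zeb2 peak in every replicate, by the least in replicate 3. These Snai1 peaks were distal, whereas those of Zeb2 were window peaks. Among window peaks alone, Snai1 reached 94.3, 92.2 and 85.5, above Zeb2 in replicates 1 and 2 and below it in replicate 3.

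Paralogs were then compared over the 3 replicates by a two-sided exact permutation test, which with 3 values against 3 cannot give a p below 0.1. In all, 4 comparisons could be tested, because a percentile was lacking where a gene had no peak. Zeb2 exceeded Zeb1 by 9.33 peaks and by 19.7 percentage points of coverage, higher in all 3 replicates for each (exact p = 0.1 for each, Benjamini-Hochberg adjusted p = 0.2). Snai2 minus Snai1 was -2.0 peaks, lower in all 3 replicates (exact p = 0.2, adjusted p = 0.267) and -11.5 percentage points of coverage, lower in 2 of 3 (exact p = 0.8, adjusted p = 0.8). No comparison passed the threshold of 0.05, which the design could not reach. The same 3 pads gave the values of both genes, a pairing that this test ignored, and a paired alternative is given further below. The labels do not say whether the pads came from different embryos, so the replicate values of a gene show the spread between pads only.

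Snai1, on chromosome 2 from 167538195 to 167542814 on the plus strand, is a compact gene of 4.62 kb, 22.0 kb from Rnf114 and 64.8 kb from Ube2v1. Its window held 1 peak in every replicate. The peak had a total signal of 137666, 171034 and 81861 in replicates 1, 2 and 3, at the percentiles 94.3, 92.2 and 85.5. It began 538, 482 and 1449 bp after the start site and ended 6.91, 7.01 and 6.67 kb after it, past the gene end. The start site itself lay under no peak, and neither did the GC-rich stretch upstream printed above. On the upstream side the nearest peak was 206, 223 and 303 kb away.

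The highest pileup of the Snai1 window peak did not lie in the gene. It covered bases 167542949 to 167542951 in replicate 1. In replicate 2 it covered 167542951 to 167542957, and in replicate 3 it covered 167542953 to 167542957. All are in intergenic DNA 4.75 to 4.76 kb from the start. The 3 positions spanned 5 bp. Over the 8916 regions of chromosomes 1 to 19 and X with a peak in all 3 replicates, this span had a median of 513 bp, and 7.96% of regions had 20 bp or less. Among the 8 member regions in all 3 replicates, 2 had 20 bp or less and 3 had 100 bp or less, where 21.3% of all regions did.

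The strongest peaks assigned to Snai1 lay downstream. A region from 167559247 to 167567362, 21.1 to 29.2 kb past the start, had a total signal of 279936, 384981 and 161263 in replicates 1, 2 and 3. These peaks ranked 235, 220 and 558 in their lists. The region overlaps Gm11476, an annotated noncoding gene. It was assigned to Snai1 by the nearest protein-coding start alone, and whether it acts on Snai1 was not tested. The highest pileup was at 167559944 to 167559947 in replicates 1 and 2 alike and at 167564186 in replicate 3, so that the summit differed by 4241 bp although the peak borders nearly coincided.

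A further Snai1 region at 167581084 to 167587657, also over Gm11476, had peaks in replicates 1 and 2 at the percentiles 83.7 and 81.7 and none in replicate 3. Its assignment was close: the peak middle in replicate 1 was 46.4 kb from the Snai1 start and 47.4 kb from that of Ube2v1, a gene for a ubiquitin-conjugating enzyme variant. The next region, just outside the rule, had its nearest start at Ube2v1 and lay 57.8 to 60.4 kb from that of Snai1, at the percentiles 97.5, 97.5 and 90.3. A weak peak at 167552439 to 167555775 appeared in replicate 2 alone, at the percentile 3.15.

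Snai2, on chromosome 16 from 14705852 to 14709385 on the plus strand, is 3.53 kb long and stands apart from its neighbours, 71.7 kb from A630010A05Rik and 197 kb from Efcab1. Replicate 1 had a peak over the gene at the percentile 13.4 and another past its end at 27.9. Replicate 3 had a single peak from 14707825 to 14714146, at the percentile 74.5. Replicate 2 had none, and its nearest peak past the start was 233 kb away. Snai2 had 0 distal peaks in every replicate.

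The Snai2 peaks were weak by another measure. Set against the lowest total signal in the same list, those of replicate 1 were 1.15 and 1.37 times as high and that of replicate 3 was 2.99 times as high. The highest pileup was 25 and 32 in replicate 1 and 31 in replicate 3, against 99, 111 and 60 in the Snai1 window peak of replicates 1, 2 and 3. The replicate 3 peak was 6.32 kb long and lay at the percentile 29.9 by maximum pileup and 26.9 by total signal per base. The weakest peak listed had a total signal of 14265, 24247 and 19337 in replicates 1, 2 and 3, highest in the replicate that lacked Snai2 peaks. The merged Snai2 region was 39.1% GC, and the part of either value in the absence was not tested.

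Zeb1, on chromosome 18 from 5591860 to 5775467 on the plus strand, spans 184 kb with 3 protein-coding start sites, between Zfp438 at 257 kb and Arhgap12 at 249 kb. Its window held 0 peaks in every replicate. The only assigned peak, in replicate 2, lay 225 to 229 kb past the start, at the percentile 28.2 and 1.34 times the weakest total signal listed. The stretch around the Zeb1 start with no listed peak was 876, 650 and 875 kb long in replicates 1, 2 and 3.

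Such an empty neighbourhood is common. Over all protein-coding genes the stretch without a peak around the 5′ start had a median of 439, 541 and 619 kb, and Zeb1 lay at the percentile 65.5, 53.8 and 59.6. A window with 0 peaks in every replicate was found for 71.2% of all genes, and for 37.9% of the 2805 genes with windows of 100 kb or more. The lists are named as the top 1% of signal blocks, so the values say that Zeb1 carried no block of that rank, not that it lacked the mark.

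Zeb2, on chromosome 2 from 44983632 to 45117395 on the minus strand, spans 134 kb. It lies 56.0 kb from Gtdc1 on its 3′ side, and 3697 kb from Acvr2a, an activin receptor gene, on its 5′ side. Its window held 8, 5 and 6 peaks in replicates 1, 2 and 3, and 4, 2 and 4 distal peaks lay upstream. Among windows of 100 kb or more, 44.7% had a window peak in all 3 replicates and 11.7% had 5 or more in each, as Zeb2 did. The median coverage of such windows was 0.961%, against 19.7% for Zeb2.

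Merging gave Zeb2 12 regions, and 6 of them recurred in all 3 replicates. Over the 4 genes this held for 8 of 18 regions (44.4%), close to the 46.3% of all 19251 merged regions. The region with the highest total signal, from 45099914 to 45109492, lay 7.9 to 17.5 kb into the gene, at the percentiles 91.2, 76.6 and 94.5. The next, from 45060815 to 45069952, lay 47.4 to 56.6 kb into the gene, and its strongest peaks were at 69.0, 76.3 and 90.8. Within that region the highest pileup moved by 69 bp between replicates, that of the stronger region by 5587 bp. The highest pileup was intronic in each, except in replicate 1 of the stronger region, where it met an exon of a noncoding transcript.

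The remaining Zeb2 window regions in all replicates were weaker. A region 25.4 to 30.9 kb into the gene lay at the percentiles 58.8, 43.9 and 68.8. One at 69.2 to 73.7 kb lay at 55.1, 25.3 and 57.1, and one at 0.337 to 4.05 kb lay at 23.5, 55.4 and 71.9. Their highest pileups moved by 893, 1453 and 1117 bp between replicates. All 5 window regions in all replicates were thus within 73.7 kb of the 5′ start, and the rest of the gene body held no peak that recurred. The window regions in a single replicate were at 73.9 to 76.0 kb and past the gene end in replicate 1, and at 18.0 to 19.7 kb in replicate 3, at the percentiles 19.9, 8.09 and 7.41.

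Distal peaks of Zeb2 all lay on its 5′ side, toward Acvr2a. The rule itself favoured that side, because Gtdc1 lies 56.0 kb away on the 3′ side and Acvr2a 3697 kb away on the 5′ side. The sidedness is therefore not a result about Zeb2. The region in all 3 replicates, from 45355048 to 45363070, stood 238 to 246 kb upstream, over the noncoding gene Gm13479. Its strongest peaks were at the percentiles 35.9, 22.1 and 91.4, so it was the highest distal region of Zeb2 in replicate 3 but not in replicate 1. The highest pileup nevertheless stayed within 6 bp. It is the distal stretch printed above, with TAATTA.

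Other distal regions of Zeb2 were seen in replicates 1 and 3 but not 2: one 107 to 114 kb upstream, at the percentiles 51.8 and 81.9, and one 294 to 297 kb upstream, at 53.8 and 70.7. A peak 66.3 to 68.8 kb upstream was in replicate 3 alone, at 22.3. The distance limit cut this series of peaks. Just beyond it, a peak whose nearest start was that of Zeb2 lay 318 kb away in each replicate, at the percentiles 40.8, 16.4 and 63.4. A further one lay 1326 to 1327 kb away in each, at 78.6, 68.0 and 79.9.

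Start sites were examined next, because H3K4me1 is usually low directly over active ones. None of the 17 protein-coding start sites of Zeb2 lay under a peak in any replicate, nor did the start of Snai1, the start of Snai2 or the 3 of Zeb1. Over all genes, 7.02, 8.03 and 3.84% of the 54050 start sites lay under a peak in replicates 1, 2 and 3. Among genes with a window peak in all 3 replicates, 68.4% had their 5′ start under no peak in any, so Snai1 and Zeb2 shared this with most such genes.

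At Zeb2 the bare stretch was flanked closely on both sides. It ran for 4701, 5462 and 4016 bp in replicates 1, 2 and 3 between the region at 0.337 to 4.05 kb and the strongest region of the gene, and it held 15 of the 17 start sites. Its GC content was 50.1, 51.6 and 52.8%, against 42.9 to 45.1% in the flanking peaks. A peak within 1 kb of a start site was found for Zeb2 in all 3 replicates, as for 6.17% of all genes, a share not matched for its 17 start sites. With the 5′ start site alone, Zeb2 had one in 2 replicates. Snai1 had such a peak in replicates 1 and 2, Snai2 in replicate 1, and Zeb1 in none.

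**Figure D3:**
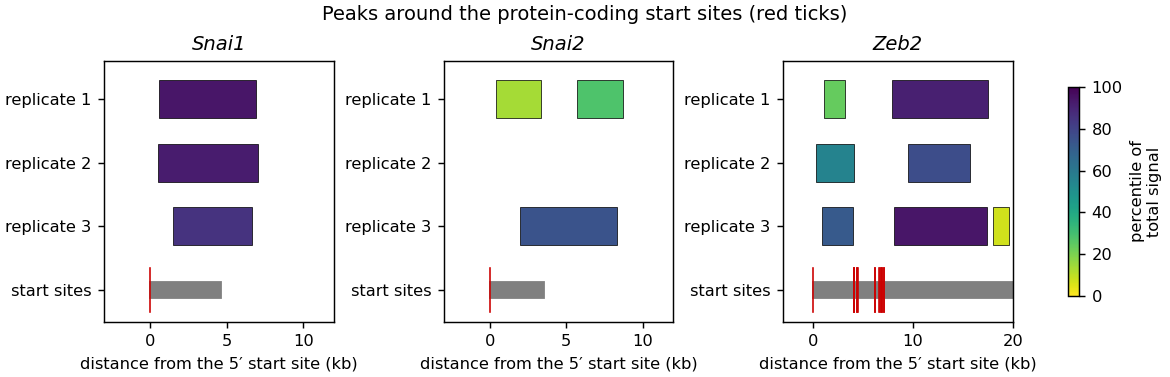
Peaks of Snai1, Snai2 and Zeb2 near the 5′ start site, by distance in kb along the gene, with protein-coding start sites as red ticks, the gene body in grey and peaks coloured by percentile of total signal. The ticks of Zeb2 crowd into the stretch of 4016 to 5462 bp between peaks, and no tick lies under a peak.

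The replicates differed in a way that moved with base composition, and the values of Snai1 and Zeb2 moved with it. The share of signal in regions found in all 3 replicates was compared between replicates 3 and 2 as a log2 ratio. The Snai1 window region, 55.7% GC, had -0.60, where regions within 1 percentage point of its GC content had a median of -0.96. The Snai1 distal region, 53.2% GC, had -0.79 beside a median of -0.67. The 6 Zeb2 regions, 38.3 to 45.1% GC, had 0.58 to 1.43 beside medians of 0.42 to 1.43.

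Both Snai1 regions were therefore lower and all 6 Zeb2 regions higher in replicate 3 than in replicate 2, and the medians for regions of like GC content had the same signs. The distal Zeb2 region equalled the median for its GC content, 1.43. The strongest Zeb2 region stood farthest above its own, at 1.19 beside 0.42. Between replicates 1 and 2 the log2 ratio was 0.03 and -0.11 for the Snai1 regions and -1.08 to 0.65 for those of Zeb2. The part of base composition in these differences was not tested.

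**Figure D4:**
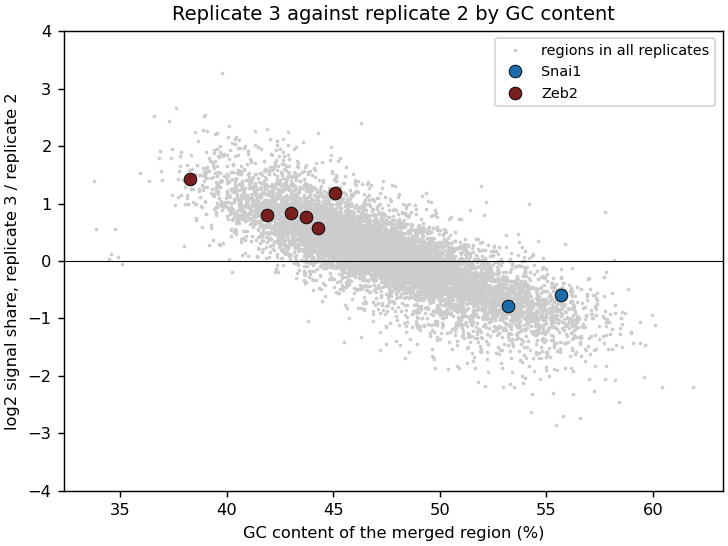
Log2 ratio of signal share, replicate 3 over replicate 2, against GC content in percent, for each region with a peak in all 3 replicates (grey); the Snai1 regions (blue) and Zeb2 regions (dark red) are marked. The ratio falls with GC content, and the 2 Snai1 regions lie below 0 and the 6 Zeb2 regions above it.

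Motifs were counted in the 300 bases at the highest pileup of each peak. CAGGTG or its reverse was in 3 of the 42 member peaks, all of Zeb2, and in 19.1% of all peaks. CATCTG was in 8 of 42, against 26.8%, and CTTTGAT in 2 of 42, against 3.91%. TAATTA was in 4 of 42, all of Zeb2, against 5.01%. Peaks of different replicates share the same DNA, so these are not independent counts, and a match is a description of letters only.

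The partners of the 4 factors were read from lists of pathway genes. Of 8 cofactors, 2 had a window peak in all 3 replicates: Ctbp2, a corepressor bound by Zeb proteins, with 29.7 ± 1.98% of its window covered (SD, n = 3), and Ajuba, a LIM protein that joins Snai1 to repressive enzymes, with 21.0 ± 1.49%. The cofactors Ctbp1, Kdm1a, Rcor1, Hdac2 and Sin3a had 0 peaks in every replicate. The share of 2 in 8 stands beside 15.5% of all genes, and the list median of coverage was 0%, as over all genes. Ctbp2 is the 1 cofactor with a window of 100 kb or more, for which the share over all genes was 44.7%.

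The receptors that induce the factors were counted next. The list held 9 chosen receptors for TGF-beta, BMP, FGF and Notch ligands, not every such receptor. It was drawn up with earlier results of these data known. All 9 had a window peak in all 3 replicates, with a list median of coverage of 23.9%. Of the 9, 6 have windows of 100 kb or more, for which the share over all genes was 44.7%, against 15.5% for windows of any length. Among them Fgfr2, named after its values were seen, has an annotated body of 2961 kb. It had 51, 44 and 42 window peaks in replicates 1, 2 and 3, with 7.66 ± 0.459% of its window covered. The share for windows of that size was not computed. Notch2, with 47.0 ± 3.46%, Tgfbr3, a TGF-beta coreceptor, with 44.2 ± 3.95%, and Notch1, with 36.1 ± 3.35%, had the highest coverage.

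Of 10 other transcription factors of the transition, 6 had a window peak in all 3 replicates, with a median coverage of 14.9%. The share over all genes was 15.5%, and 2 of the 3 members with windows of 100 kb or more had such a peak, beside 44.7% of all such windows. Twist1, a basic helix-loop-helix factor of cranial mesenchyme, had 45.1, 25.0 and 61.7% in replicates 1, 2 and 3 (43.9 ± 18.4%). Prrx1, a mesenchymal homeodomain factor, had 33.5 ± 7.46%, and Sox9, a factor of neural crest and cartilage, 27.3 ± 2.75%. Tcf3, Foxc2 and Klf8 had 0 peaks in every replicate. The fellow family member Snai3, named after its values were seen, had a peak in replicate 2 alone.

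Genes that rise or fall in the transition were read from separate lists. Of 8 mesenchymal genes, 6 had a window peak in all 3 replicates, with a median coverage of 11.3%. This stands beside 15.5% of all genes, and beside 44.7% for the 2 members with windows of 100 kb or more, both of which had one. S100a4 had 43.5 ± 11.8%, Mmp2, a matrix protease, 20.7 ± 4.52%, and Vim, the intermediate filament vimentin, 15.8 ± 3.49%. Acta2, smooth muscle actin, had 0 peaks. Of 14 epithelial genes, 2 had a peak in all 3 replicates, or 14.3% beside 15.5% of all genes, with a median coverage of 1.21%: Ovol2 with 9.56 ± 3.07% and Grhl2 with 5.19 ± 1.99%, both transcription factors that hold the epithelial state. Grhl2 is the 1 gene of this list with a window of 100 kb or more, for which the share was 44.7%. The epithelial list had 6, 7 and 2 genes with a peak in replicates 1, 2 and 3, beside 24.9, 22.6 and 19.6% of all genes. In this list 7 genes had none in any replicate, as did 71.2% of all genes. Cdh1, the E-cadherin gene repressed by all 4 factors and named after its values were seen, had 4.96, 2.28 and 0% of its window covered.

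Markers of other cells in the pad were counted too. Of 10 surface ectoderm markers, 8, 8 and 4 had a window peak in replicates 1, 2 and 3, beside 24.9, 22.6 and 19.6% of all genes. The numbers with a peak in all 3 were 2 of 7 for endothelium, 0 of 7 for glia and pigment cells, 3 of 5 for muscle and 1 of 6 for blood, beside 15.5% of all genes. Windows of 100 kb or more numbered 4 for endothelium, 1 for glia and pigment cells, 1 for muscle and 2 for blood. Of these, 2, 0, 1 and 1 had such a peak, beside 44.7% of all such windows. Which cells of the pad carried the Snai1 and Zeb2 peaks was not tested.

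**Figure D5:**
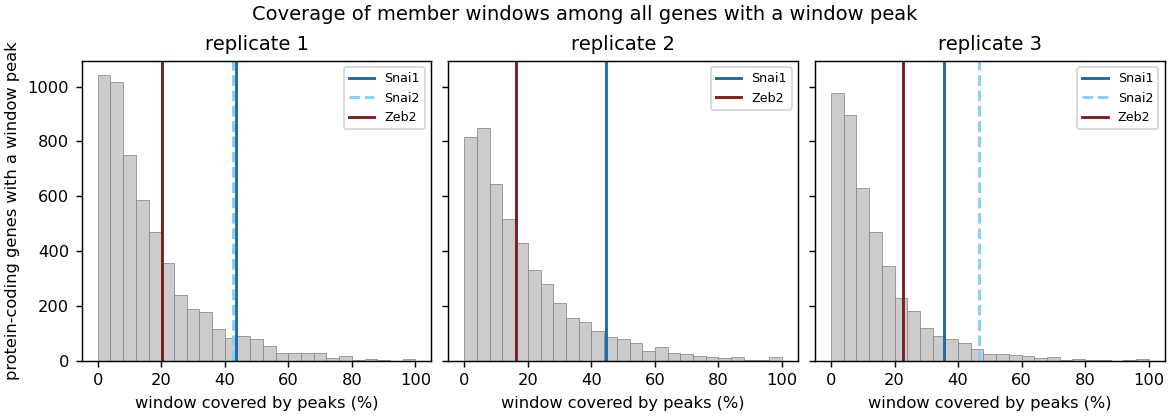
Number of protein-coding genes (vertical axis) by percent of the window covered by peaks (horizontal axis), for genes with a window peak in each replicate; lines mark the member genes that had one. Snai1 lies at 35.7 to 44.7% and Zeb2 at 16.2 to 22.7%, while Snai2 is drawn in replicates 1 and 3 only and Zeb1 in none.

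By the percentile of summed total signal in the window, Snai1 stood at 94.2, 94.0 and 92.6 of all genes and Zeb2 at 97.2, 96.5 and 98.4 in replicates 1, 2 and 3. The genes most like Snai1 over the 3 values were Pja1 (94.1, 94.0 and 92.4) and Slamf9 (94.0, 94.3 and 92.6). Those most like Zeb2 were Ldlrad4 (97.3, 96.4 and 98.2) and Sdccag8 (97.5, 96.6 and 98.5). Likeness was the Euclidean distance over the 3 replicates, 0.267 and 0.376 for the genes beside Snai1 and 0.231 and 0.26 for those beside Zeb2.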

How the data were processed

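The authors mapped H3K4me1 in each whisker pad by CUT&Tag with 51 bp paired-end reads and deposited 1 peak list per replicate. The submitters' processing notes name Bowtie2 2.3, SAMtools 0.1.19, bedtools, SEACR 1.3 and mm10, and the study's methods state that SEACR was run without IgG at several top fractions. The deposited lists are named as the stringent set of the top 1%. The deposited signal columns hold each peak's total signal (summed pileup) and maximum signal, not scaled to depth, so percentiles within a list were compared. The study states the same nominal depth for each sample, the lists hold no read numbers, and duplicate handling is not given in the sources used here. Total signal over a list was 822360552, 985881531 and 744342185 in replicates 1, 2 and 3.

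Peaks were assigned in Python 3.11.15 (numpy 2.4.6, pysam 0.24.0) with GENCODE vM21 on GRCm38, 1-based. A distal peak was assigned by its middle, and whether it acts on the gene it was assigned to was not tested. Peaks of different replicates were merged into a region when they overlapped by at least 1 bp. Paralogs were compared by exact permutation (scipy 1.17.1). Assignment and merging were tested on simulated peaks. The value of 1 listed gene is not reported by itself here. The members and gene lists were chosen with earlier results of these data known. Genes named were the 4 members, their adjacent genes, at most 3 genes per pathway list with the highest mean coverage among those with a peak in all 3 replicates, the genes of a pathway list with 0 peaks where 5 or fewer, and the 2 genes most like each member with a window peak in all replicates. Alternatives were other windows, limits, signal measures and overlaps, and leaving out each replicate. The same pads gave every gene's values, so a paired test was an alternative.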

Additional observations from a re-analysis of the deposited data

How the results depend on the processing

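Over 28 results, 110 values were recomputed, and 17 moved. The other 93 stayed within the spread between replicates or within 1.5 times the count reported, or were paired p values, which were not checked. A wide spread let large changes pass. Coverage of Snai2 (29.8 ± 25.9%) was 15.6% with the stronger 50% of each list and counted as unmoved. Reversal of a direction was not checked. With only the stronger 50% of each list, peaks per gene fell to 0.333 for Snai2, 0 for Zeb1 and 5.67 for Zeb2, and coverage of Zeb2 to 15.6%. Coverage of Snai1 was 82.2% over the gene body alone and 24.0% with 20 kb on each side. Distal peaks up to 100 kb left 0 for Zeb1. The highest percentile of Zeb1 was 29.1 by maximum signal and 4.83 by total signal per length, and that of Zeb2 by total signal per length was 71.6. With 2.5 kb on each side of the start, Snai2 had a peak in 2 replicates. In whole peaks, CAGGTG was in 35 of 42 member peaks, CATCTG in 40, TAATTA in 33 and CTTTGAT in 23, against 87.5, 93.1, 54.6 and 43.8% of all peaks.

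Leaving out each replicate gave 0.5 to 1.5 peaks for Snai2 (0.5 without replicate 1) and 0 to 0.5 for Zeb1 (0 without replicate 2). Snai2 coverage was 44.7% without replicate 2, and its highest percentile was 27.9 without replicate 3 and 74.5 without replicate 1. In the paired test, with the replicate as a block, exact sign flips gave p = 0.25 for Zeb2 minus Zeb1 in peaks and in coverage, and 0.25 and 0.75 for Snai2 minus Snai1, where 0.25 is the smallest p possible, so the pairing changed no call. The lists hold no read numbers, and a gene without a peak may carry signal below the threshold of its list.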

Other observations

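The loci of the miR-200 family, small RNAs that repress Zeb1 and Zeb2, were looked up after the other values were seen. Within 5 kb of Mir200b, Mir200a and Mir429 on chromosome 4 there were 0 peaks in every replicate. Mir200c and Mir141 on chromosome 6, and Mir205 on chromosome 1, which also acts on the Zeb transcripts, each had 1 peak in replicates 1 and 2 and 0 in replicate 3. Mir200c and Mir141 lie side by side, so their stretches largely overlap and the same peak can count for both. The share of all stretches of this length with a peak was not computed, so these counts have no background.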
